A study of Homo sapiens with 43 samples.

Results

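The interferon stimulated genes described here are a list of 45 genes whose transcription rises when a cell responds to interferon, and their transcript levels were followed in 2 human cancer cell lines and derivatives of those lines. A listed gene was kept when it stood in all 4 deposited RNA tables with a mean normalised read count of at least 10 in a line, and all 45 met that rule. In each line 44 genes reached that mean, CXCL10 falling short in H2087 and EPSTI1 in HCC1954, so 43 were measured in both. They stand among 12535 genes of H2087 and 15397 genes of HCC1954 that reached the same mean. H2087 is an established line from a lung cancer and HCC1954 an established line from a breast cancer with amplified ERBB2. The parental lines were compared with latency-competent derivatives (LCC), which the labels describe as taken out of an organ that was BLI-negative, for HCC1954 a mouse organ; the abbreviation is not spelled out there. Every culture was kept subconfluent for 48 h, either with abundant mitogens (mitogen-rich medium, MRM) or with few (mitogen-low medium, MLM), and total RNA was sequenced in bulk. H2087 had 2 parental libraries in each medium and 6 derivatives, LCC1 to LCC6, with 1 library each per medium. HCC1954 had 3 parental libraries and 2 derivatives, LCC1 and LCC2, with 2 libraries each per medium, so its 4 LCC libraries per medium hold only 2 derivatives. The shared names LCC1 and LCC2 in the 2 lines do not stand for related cells. No treatment with interferon is named in the labels. The series has 43 samples, of which 30 RNA libraries were used here; Parental 3 of H2087 in MLM and 12 chromatin immunoprecipitation and input samples were not analysed here. Nothing in the labels says whether numbered libraries came from separate cultures, so p-values measure the spread between these libraries.

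Interferons of type I (IFN-alpha, IFN-beta) and type III (IFN-lambda) bind different receptors on the cell surface, and both receptors activate the kinases JAK1 and TYK2, which phosphorylate STAT2 among other substrates. STAT2 and IRF9 are subunits of the complex ISGF3, which binds a DNA element called the interferon stimulated response element (ISRE) in front of its target genes. Interferon-gamma acts through a different element, the gamma activated site (GAS), found for instance in front of IRF1. The target genes encode sensors of viral RNA, enzymes that degrade or modify RNA and nucleotides, membrane proteins that block viral entry or release, the ubiquitin-like protein ISG15 with its enzymes, and chemokines. Tumour cells can express a subset of these genes in culture without added interferon.

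RefSeq promoter sequences (GRCh38.p14, 250 bases before to 50 after the gene start) were found for 37 of the 45 genes. They were searched for an ISRE core, GAAANNGAAA, on both strands with overlapping matches allowed, and for a GAS core, TTCNNNGAA, which reads the same on both strands. The ISRE core was present in 24 of the 37 promoters (64.9%), against 996 of 27305 RefSeq promoters of that length (3.65%). The GAS core was present in 11 of 37 (29.7%), against 2152 of 27305 (7.88%). A match is a run of letters, not a measured binding site. No promoter was matched for IFIT2, IFITM2, MX2, OAS2, OASL, IRF7, USP18 and TRIM22. The stretches below lie wholly before the gene start, are written 5′ to 3′ along the gene's own strand, and belong to genes whose values are described in the following paragraphs; capitals mark the ISRE core.
ISG15, chr1:1013365-1013424, plus strand: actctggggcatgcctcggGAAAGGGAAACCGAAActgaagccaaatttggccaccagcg
IFIT1, chr10:89392495-89392554, plus strand: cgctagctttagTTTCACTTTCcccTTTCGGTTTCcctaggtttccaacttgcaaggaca
IFI6, chr1:27672251-27672310, minus strand: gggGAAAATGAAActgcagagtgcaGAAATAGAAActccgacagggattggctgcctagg
IFI27, chr14:94110616-94110675, plus strand: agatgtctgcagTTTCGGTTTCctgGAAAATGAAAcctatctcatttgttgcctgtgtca
IFI44L, chr1:78620350-78620409, plus strand: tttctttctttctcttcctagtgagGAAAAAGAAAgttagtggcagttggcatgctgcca
BST2, chr19:17405720-17405779, minus strand: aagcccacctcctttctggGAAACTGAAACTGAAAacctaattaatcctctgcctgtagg
IFITM1, chr11:313975-314034, plus strand: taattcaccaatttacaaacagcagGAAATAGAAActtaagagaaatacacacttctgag
IFITM3, chr11:320861-320920, minus strand: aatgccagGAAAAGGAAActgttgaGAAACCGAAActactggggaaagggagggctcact
HERC5, chr4:88457020-88457079, plus strand: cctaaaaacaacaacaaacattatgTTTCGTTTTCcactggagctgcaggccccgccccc
SAMD9, chr7:93118081-93118140, minus strand: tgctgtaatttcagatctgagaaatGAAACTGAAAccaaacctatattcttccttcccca
CXCL10, chr4:76023684-76023743, minus strand: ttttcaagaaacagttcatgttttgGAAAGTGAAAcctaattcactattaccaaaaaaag
No ISRE core lay in this window for STAT2, OAS1, RSAD2, CMPK2 and SAMD9L, whose values are also described but which are not shown. IRF1 and IRF9, transcription factors whose values are also described, had no ISRE core before the start in this window and are shown with the GAS core in capitals.
IRF1, chr5:132490864-132490922, minus strand: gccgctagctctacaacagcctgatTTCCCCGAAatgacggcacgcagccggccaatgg
IRF9, chr14:24161177-24161235, plus strand: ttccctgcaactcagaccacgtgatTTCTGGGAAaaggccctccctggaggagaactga

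Gene counts in HCC1954 summed to between 24852118 and 28119596 reads per library in MLM and between 28799407 and 44705518 in MRM. In H2087 they summed to between 44649263 and 55653300 reads in MLM and between 12131848 and 20847987 in MRM. The ranges of the 2 media did not overlap in either line, so depth and medium cannot be told apart. Of the epithelial markers, keratin 8 and 18 and EPCAM transcripts were abundant in every library, whereas CDH1 (E-cadherin) ran from 19.9 to 15534 in H2087. Of the lung lineage markers, NKX2-1 ran from 2319 to 6892 in H2087 and from 239 to 750 in HCC1954. SFTPB ran from 112 to 3716 and from 2.59 to 27.3, and NAPSA from 19.9 to 514 and from 22.1 to 52.4. ERBB2 ran from 246 to 4611 in H2087 and from 119992 to 307479 in HCC1954. Of 6 leukocyte markers, CD68, a lysosomal protein, was read throughout, from 2470 to 8328 in H2087 and from 356 to 1366 in HCC1954, LYZ reached 68.4 and 96.0, the pan-leukocyte gene PTPRC did not exceed 3.91 and 24.6, ITGAM did not exceed 8.41 and 71.8, and CD3E did not exceed 5.86 and 1.22, while CLEC4C and IL3RA of plasmacytoid dendritic cells, a main source of interferon in tissue, were at or near 0 throughout. In HCC1954, 2 libraries stood apart from the others of their group over genes that are not on the interferon list. The pair LCC1 1 and LCC1 2 in MRM correlated at r = 0.597 (Pearson's r of deviations from the line's gene means, across genes), and Parental 3 in MLM correlated at 0.670 and 0.661 with the other parental libraries, whereas the remaining pairs of like libraries lay between 0.947 and 0.976. Across the media, over genes of the line, both LCC1 libraries in MLM correlated best with LCC1 1 in MRM, and neither with LCC1 2. Whether a library of that pair carries the wrong label was not tested. With and without each, counts are given below for LCC2 against LCC1, pooled derivatives against parental cells, and the media in pooled derivatives. LCC1 alone against parental cells in MRM is given with both libraries only. Because RNA was taken from whole cultures, fewer cells expressing a gene and less of its RNA per cell cannot be told apart in any comparison.

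The list was first summarised in each library as the mean of log2(normalised read count + 1) over the 44 measured genes, a module mean on which a difference of 1 is a 2-fold change of the geometric mean. HCC1954 in MLM gave 12.79 and 12.5 in LCC1, the highest libraries of the line. The parental libraries in MLM stood at 11.87, 11.05 and 10.31, and LCC2 at 11.0 and 10.57. LCC1 was thus above every parental library in MLM, while LCC2 lay inside the parental range. In MRM the parental libraries were close together at 10.76, 10.78 and 10.93. LCC2 in MRM was below them at 9.81 and 9.81, the lowest libraries of the line. LCC1 in MRM was split, with 12.19 above and 10.37 below the parental libraries. H2087 showed a smaller spread, from 8.04 in LCC6 in MLM to 9.35 in LCC3 in MLM. Its parental libraries lay in the middle, at 8.81 and 8.9 in MLM and 8.79 and 8.72 in MRM. LCC1, LCC2, LCC3 and LCC4 were above both parental libraries in MLM, at 9.14, 9.26, 9.35 and 9.1, and LCC5 (8.29) and LCC6 were below. The module mean carries no test, and the 2 lines were normalised separately, so its level is not compared between them.

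**Figure D1:**
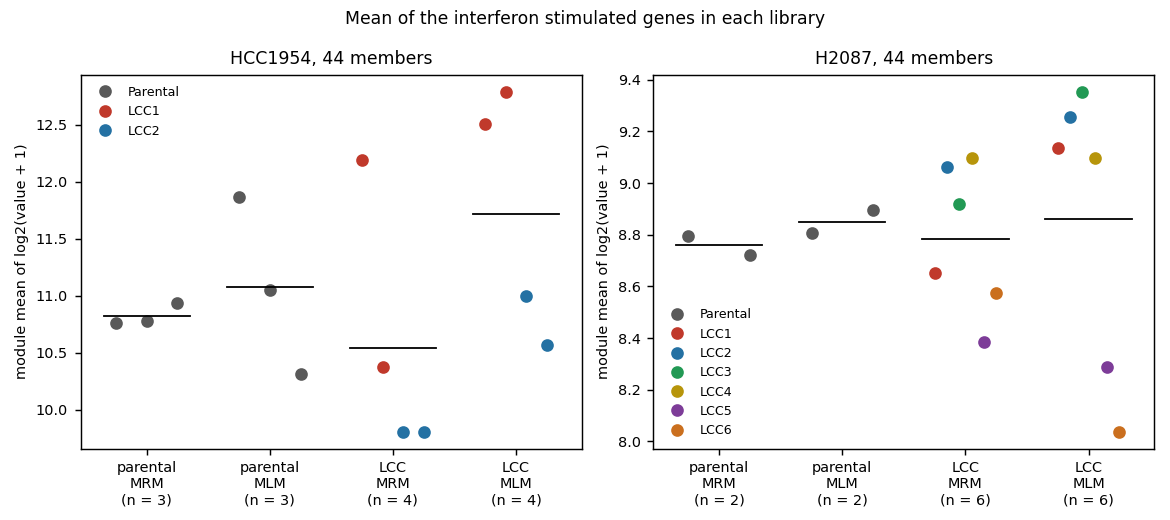
Module mean (mean of log2(normalised read count + 1) over the measured interferon stimulated genes) of each RNA library, by line, medium and derivative; each point is 1 library. In HCC1954 the LCC1 libraries in MLM are highest at 12.5 and 12.79 and the LCC2 libraries in MRM lowest at 9.81, and in H2087 the derivatives lie on both sides of the parental libraries.

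The genes moved together across the HCC1954 libraries. For each gene, the correlation of its log2 value with the mean of the other listed genes had a median of 0.94 over the 14 libraries, and 33 of 44 genes were above 0.8. Among the other genes of the line the median correlation with the module mean was 0.0094, and 1.11% were above 0.8. The libraries share derivatives and media, and the genes share the size factor of each library, so these correlations describe the pattern and carry no test. The genes least like the rest were MX1 (r = 0.30), IRF1 (r = 0.33), IFITM2 (r = 0.39) and SAMD9 (r = 0.60). Over the 14 libraries a listed gene spanned a median of 3.45 log2 units between its lowest and highest library, against 1.34 for the other genes. LCC1 2 in MLM was the highest library for 36 of 44 genes, against 7.51% of all genes of the line. Among the genes off the list that followed the module mean most closely were SP100 (r = 0.971), TRIM5 (r = 0.965), SP110 (r = 0.965) and ADAR (r = 0.964), each over 14 libraries.

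**Figure D2:**
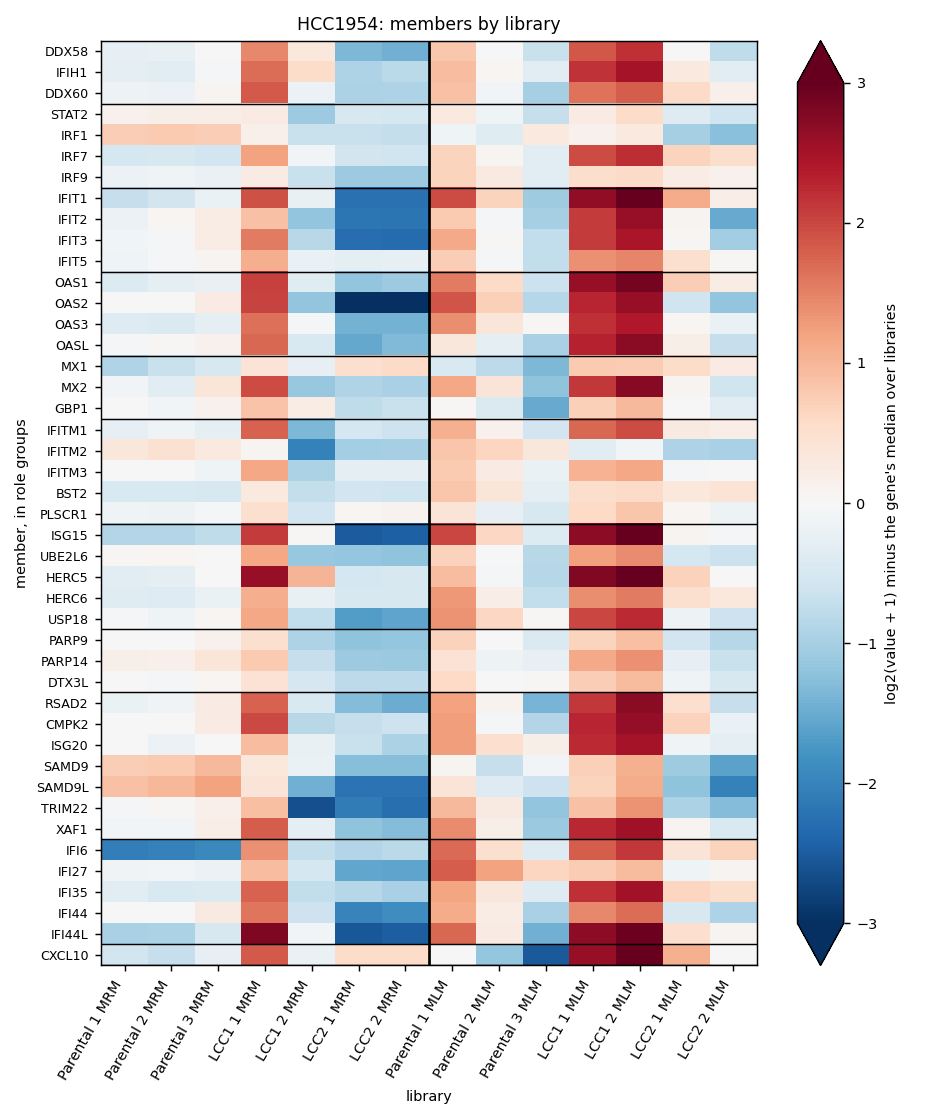
Each interferon stimulated gene (rows) in each HCC1954 library (columns), as log2(normalised read count + 1) minus the gene's median over the 14 libraries; colour gives the difference in log2 units. The columns of LCC1 in MLM and of LCC1 1 in MRM are high for most genes and the columns of LCC2 in MRM are low, with MX1, IRF1 and IFITM2 departing from that pattern.

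The 2 HCC1954 derivatives differed from each other more than either group label would show, so they were compared first, with limma on the log2 scale and Benjamini-Hochberg adjustment over all tested genes; a gene was called at an adjusted p under 0.05. In MLM, 32 of 45 tested genes were lower in LCC2 than in LCC1 and none was higher; of all tested genes 20.3% were called lower and 19.3% higher. (EPSTI1 passed the filter on a mean of 10 in this medium alone.) The median log2 difference over the listed genes was -2.16, against -0.0035 over all tested genes. In MRM, 23 of 44 were lower and none was higher, against 18.6% and 16.4% of all tested genes, with a median of -1.32 against 0.015. The same genes made up much of both lists: 17 were called lower in both media, 53.1% of the MLM list and 73.9% of the MRM list. With library totals as the scale in place of the size factors, the median of all genes moved by 0.14 in MLM and 0.14 in MRM, 66.5% (against 48.7%) of all calls were higher in MLM and 66.5% (against 46.9%) in MRM, and 30 and 17 listed genes were lower and none higher. The parental libraries enter only the estimate of spread, and the first count depends on them. Leaving out Parental 1, 2 or 3 in MLM gave 40, 29 and 43 called, 1 of the 43 being higher. The shares of all tested genes are not given for these refits. The disagreement of the LCC1 libraries in MRM bears on the second count. Without LCC1 1, 28 were lower and 8 higher, against 31.7% and 33.3% of all tested genes, and the median was -0.55. Without LCC1 2, 43 were lower and 0 higher, against 31.1% and 28.1%, and the median was -2.52. Leaving out either LCC2 library in MRM left 5 called, and leaving out Parental 1, 2 or 3, which enter only the estimate of spread, left 12, 11 and 10. In MLM the count fell to 15 without LCC1 1, 9 without LCC1 2, 16 without LCC2 1 and 9 without LCC2 2; with such a gap a derivative has 1 library, whose spread is taken from the others.

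The sensors of viral RNA, DDX58 (RIG-I), IFIH1 (MDA5) and DDX60, were lower in LCC2 for 2 of 3 genes in MLM and 3 of 3 in MRM. The transcription factors STAT2, IRF1, IRF7 and IRF9 were lower for 3 of 4 in MLM and 2 of 4 in MRM, and their differences were smaller than those of most effectors, with a median of -1.11 in MLM. STAT2, a subunit of ISGF3, stood in MLM at 6453, 4848 and 3268 in the parental libraries, 6296 and 7725 in LCC1 and 4024 and 3499 in LCC2. In MRM STAT2 was 5749, 6011 and 6042 in the parental libraries, 6215 and 2481 in LCC1 and 3801 and 3661 in LCC2. Its log2 difference between LCC2 and LCC1 was -0.89 ± 0.29 (adjusted p = 0.045) in MLM and -0.074 ± 0.37 (adjusted p = 0.891) in MRM, so it passed in MLM only, where the LCC1 libraries lay above both LCC2 libraries. That order held for 6441 of 15309 genes in MLM. IRF9, the DNA-binding subunit of ISGF3, was 6969, 5249.5 and 3434 in the parental libraries, 6315 and 6545 in LCC1 and 5105 and 4801 in LCC2 in MLM. In MRM IRF9 was 3843, 3962 and 3797 in the parental libraries, 5161 and 2728 in LCC1 and 2040.3 and 2036 in LCC2, LCC2 being lower than all other libraries of that medium. The difference was -0.38 ± 0.28 (adjusted p = 0.326) in MLM and -0.88 ± 0.26 (adjusted p = 0.0389) in MRM. IRF1, a factor that responds strongly to interferon-gamma, was 3008, 2570.1 and 4084 in the parental libraries, 3649.9 and 4067 in LCC1 and 1664 and 1399.8 in LCC2 in MLM. In MRM IRF1 was 5527, 5718 and 5571 in the parental libraries, 3679 and 2095 in LCC1 and 2078 and 2014 in LCC2, so every derivative library was below every parental one. LCC2 against LCC1 gave -1.33 ± 0.21 (adjusted p = 0.00328) in MLM and -0.44 ± 0.23 (adjusted p = 0.179) in MRM.

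Among the effectors that bind or degrade RNA, the oligoadenylate synthetases, whose products activate RNase L, were lower in LCC2 for 4 of 4 genes in MLM and 3 of 4 in MRM. OAS1 was 5178, 2593 and 1114 in the parental libraries, 10760.5 and 12772 in LCC1 and 2938 and 2038 in LCC2 in MLM. In MRM OAS1 was 1326, 1419 and 1507 in the parental libraries, 7264 and 1365 in LCC1 and 774 and 824 in LCC2. The LCC2 libraries lay below the LCC1 libraries in both media, with a difference of -2.26 ± 0.62 (adjusted p = 0.0265) in MLM and -1.98 ± 0.66 (adjusted p = 0.0587) in MRM, the latter not called. The same order held for 6441 of 15309 genes in MLM and 5184 of 15497 in MRM, so it says little about a single gene. OAS2 had the widest gap of the list in MLM, with 18209 and 22901 in LCC1 and 2469 and 1645 in LCC2, a difference of -3.34 ± 0.76 (adjusted p = 0.0136). In MRM OAS2 was 15367 and 1661 in LCC1 and 411 and 439 in LCC2, a difference of -3.57 ± 0.88 (adjusted p = 0.0222). OASL, which enhances RIG-I signalling, was 4067 and 5388 in LCC1 and 933 and 504 in LCC2 in MLM, a difference of -2.77 ± 0.44 (adjusted p = 0.00374). The OAS genes resemble each other, and reads shared between them could be split by the counting. The IFIT proteins, which bind viral RNA, were lower in LCC2 for 2 of 4 genes in MLM and 3 of 4 in MRM. IFIT1 was 8313, 3402 and 1012 in the parental libraries, 13399.7 and 16901 in LCC1 and 4619.5 and 2456 in LCC2 in MLM. In MRM IFIT1 was 1319, 1452 and 1847 in the parental libraries, 8052 and 1827 in LCC1 and 450.3 and 452 in LCC2. LCC2 lay below LCC1 in both media, with a difference of -2.16 ± 0.86 (adjusted p = 0.0863) in MLM, which did not pass, and of -3.08 ± 0.604 (adjusted p = 0.00975) in MRM, which did. As with OAS1, the order of the libraries alone says little. IFIT2 in MLM was 12856 and 18288 in LCC1 and 3172 and 1051 in LCC2, a difference of -3.07 ± 0.66 (adjusted p = 0.0108). The IFIT genes are also similar in sequence and carry the same reservation.

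ISG15, a ubiquitin-like protein attached to other proteins, and the enzymes that attach or remove it were lower in LCC2 for 4 of 5 genes in MLM and 3 of 5 in MRM. ISG15 itself was 9687, 3696 and 1823 in the parental libraries, 15629.9 and 20418 in LCC1 and 2582 and 2360.0 in LCC2 in MLM. In MRM ISG15 was 1315, 1306 and 1423 in the parental libraries, 10326 and 2482 in LCC1 and 431 and 445 in LCC2. Both LCC1 libraries were above all parental libraries in both media, and the LCC2 libraries were below all parental libraries in MRM but inside the parental range in MLM. The difference between LCC2 and LCC1 was -2.85 ± 0.66 (adjusted p = 0.0143) in MLM and -3.53 ± 0.57 (adjusted p = 0.005) in MRM. USP18, which removes ISG15 and also dampens signalling at the type I receptor, was 2839, 1703 and 1133 in the parental libraries, 4452 and 5224 in LCC1 and 991 and 726 in LCC2 in MLM. In MRM USP18 was 1086, 1013 and 1159 in the parental libraries, 2493 and 663 in LCC1 and 345 and 370.5 in LCC2. LCC2 was below every parental library in both media, and its difference from LCC1 was -2.51 ± 0.39 (adjusted p = 0.0032) in MLM and -1.84 ± 0.53 (adjusted p = 0.0365) in MRM. IFI6 and IFI27 encode small membrane proteins of mitochondria and the endoplasmic reticulum, and the IFI group was lower in LCC2 for 2 of 5 genes in MLM and 3 of 5 in MRM. IFI6 was 30846, 13269.7 and 7303 in the parental libraries, 33408 and 41329 in LCC1 and 12386 and 15037 in LCC2 in MLM. In MRM IFI6 was 2240.0, 2316 and 2500.3 in the parental libraries, 24789.5 and 5823 in LCC1 and 5177 and 5388 in LCC2, so both derivatives lay above the parental libraries. IFI6 did not pass between the derivatives, with -1.45 ± 0.58 (adjusted p = 0.0859) in MLM and -1.19 ± 0.58 (adjusted p = 0.154) in MRM. IFI27 was 25520.2, 16660.3 and 11151 in the parental libraries, 12271 and 13802 in LCC1 and 6585 and 7555 in LCC2 in MLM. In MRM IFI27 was 6718, 6838 and 6353 in the parental libraries, 13674 and 5009 in LCC1 and 2421 and 2400.5 in LCC2, with LCC2 lowest in both media. The difference of IFI27 was -0.88 ± 0.33 (adjusted p = 0.074) in MLM and -1.78 ± 0.401 (adjusted p = 0.016) in MRM. IFI44L had the widest gap of the list in MRM, 10611 and 1423 in LCC1 and 260.1 and 272 in LCC2, a difference of -3.87 ± 0.81 (adjusted p = 0.0124).

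Of the membrane proteins that restrict viruses, 3 of 5 were lower in LCC2 in MLM and 0 of 5 were called in MRM. IFITM1, which hinders fusion of viral and cell membranes, was 9119.7, 4739 and 2923 in the parental libraries, 14248 and 16876 in LCC1 and 5204 and 4979 in LCC2 in MLM. In MRM IFITM1 was 3635, 3961 and 3587 in the parental libraries, 14894 and 1697 in LCC1 and 3012 and 2824 in LCC2, the LCC1 libraries lying on either side of all the others. The difference was -1.61 ± 0.45 (adjusted p = 0.0289) in MLM and -0.79 ± 0.86 (adjusted p = 0.51) in MRM. IFITM3, which acts in endosomes, was 17474, 11875 and 8801 in the parental libraries, 20805 and 22594 in LCC1 and 9623 and 10034 in LCC2 in MLM. In MRM IFITM3 was 10107, 10154 and 9282 in the parental libraries, 22509.7 and 5247 in LCC1 and 8252 and 8178 in LCC2, again with LCC1 on either side. Its difference was -1.14 ± 0.28 (adjusted p = 0.0167) in MLM and -0.404 ± 0.58 (adjusted p = 0.618) in MRM. IFITM1, IFITM2 and IFITM3 are close paralogs, and reads shared between them make each value uncertain. BST2 (tetherin), which holds budding virions at the cell surface, was 14442, 10493 and 6681 in the parental libraries, 11820.4 and 12097 in LCC1 and 10173 and 10779 in LCC2 in MLM. In MRM BST2 was 5985, 5938 and 5826 in the parental libraries, 9961 and 4977 in LCC1 and 5459.5 and 5357 in LCC2. BST2 differed between LCC2 and LCC1 by -0.19 ± 0.31 (adjusted p = 0.652) in MLM and -0.38 ± 0.28 (adjusted p = 0.327) in MRM, neither called. MX1, a GTPase that blocks the replication of influenza and other viruses, was low in this line and set apart from the list. It was 99.7, 79.0 and 53.5 in the parental libraries, 237 and 233 in LCC1 and 203 and 164 in LCC2 in MLM. In MRM MX1 was 73.5, 86.2 and 98.7 in the parental libraries, 183 and 116 in LCC1 and 196 and 204 in LCC2, so all derivative libraries were above all parental ones in both media. MX1 was not called between LCC2 and LCC1, with -0.36 ± 0.29 (adjusted p = 0.353) in MLM and 0.46 ± 0.24 (adjusted p = 0.187) in MRM. CXCL10, a secreted chemokine that attracts T cells, was 88.1, 38.9 and 14.3 in the parental libraries, 540.4 and 906 in LCC1 and 185 and 87.1 in LCC2 in MLM. Its difference between LCC2 and LCC1 was -2.45 ± 0.78 (adjusted p = 0.0436) in MLM, and in MRM, with 314 and 75.8 in LCC1 and 128 and 128 in LCC2, it was -0.27 ± 0.59 (adjusted p = 0.746).

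**Figure D3:**
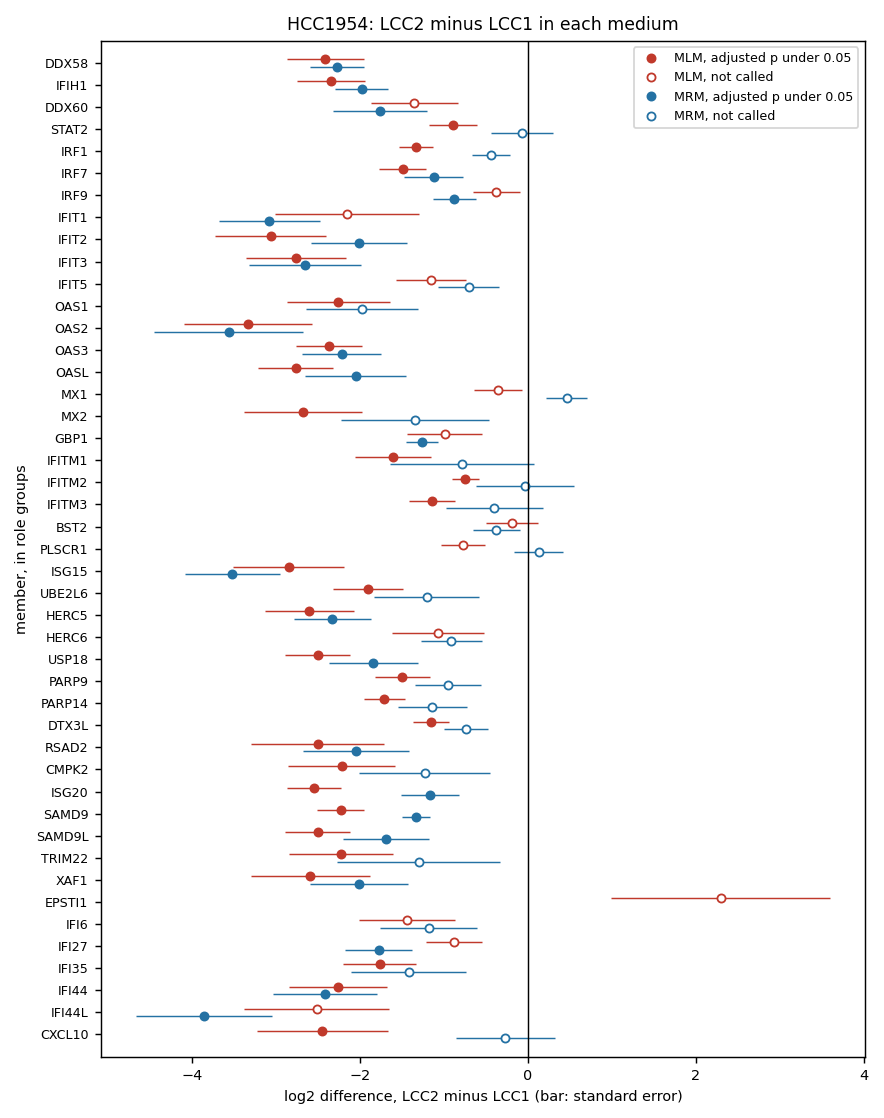
Log2 difference between LCC2 and LCC1 of HCC1954 for each interferon stimulated gene, in MLM and in MRM, with the standard error from limma; filled points are called at an adjusted p under 0.05. Nearly all points lie below 0, with medians of -2.16 in MLM and -1.32 in MRM.

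The interferon genes themselves were read in few copies, and IFNL1 in both media and IFNL2 in MLM were lower in LCC2 than in LCC1. IFNL1, a type III interferon, had 5, 7 and 2 reads in the parental libraries in MLM, 76 and 84 in LCC1 and 14 and 1 in LCC2. In MRM IFNL1 had 12, 16 and 13 reads in the parental libraries, 33 and 23 in LCC1 and 3 and 2 in LCC2. LCC2 was lower than LCC1 by a log2 difference of -4.09 ± 0.96 (adjusted p = 0.015) in MLM and -3.14 ± 0.45 (adjusted p = 0.00348) in MRM in the limma fit. IFNL2 had 1, 1 and 0 reads in the parental libraries in MLM, 27 and 31 in LCC1 and 6 and 2 in LCC2, a difference between the derivatives of -2.91 ± 0.65 (adjusted p = 0.0123); it shares most of its sequence with IFNL3, so the split between the 2 is uncertain. IFNB1, the type I interferon made by most cell types, had 7 and 19 reads in LCC1 in MLM and 17 and 16 in MRM, and 0 to 4 reads in each other library. IFNG had 0 reads in every library, which allows up to 3 reads per library by counting error alone. IFNE, a type I interferon known from epithelia, had another order, with 12, 8 and 10 reads in the parental libraries, 2 and 4 in LCC1 and 4 and 11 in LCC2 in MLM. In MRM IFNE had 26, 23 and 38 reads in the parental libraries, 6 and 36 in LCC1 and 22 and 26 in LCC2. LCC1 2 in MRM, where most listed genes were low, was below LCC1 1 in normalised read count for IFNL1 (18.0 against 33.9), IFNL2 (9.38 against 25.7), IFNB1 (12.5 against 17.5) and IFNL3 (0 against 13.4), and above it for IFNE (28.1 against 6.16). Of the 10 receptors and kinases of the pathway, 6 were higher in LCC2 than in LCC1 in MLM and 5 in MRM, against 19.3% and 16.4% of all tested genes; the kinase JAK1 was lower in MLM. The receptor chains IFNAR1, IFNAR2, IFNGR2 and IL10RB and the kinase TYK2 were higher in LCC2 than in LCC1 in both media, opposite to the target genes. In limma IFNAR1 differed by 0.905 ± 0.087 (adjusted p = 0.000675) in MLM and 0.88 ± 0.071 (adjusted p = 0.000681) in MRM. LCC2 was still below every parental library for IFNAR1 and IFNAR2 in both media. IFNAR1 in MLM was 3639, 3291 and 3661 in the parental libraries, 1283 and 1433 in LCC1 and 2491 and 2589 in LCC2. In pooled derivatives against parental cells, 4 of these 10 genes were lower in MLM and 5 in MRM, and 0 were higher. Of all tested genes 18.9% and 19.3% were lower there. IFNLR1, the specific chain of the type III receptor, was not called in either medium, with -0.55 ± 0.23 (adjusted p = 0.0955) in MLM and 0.021 ± 0.11 (adjusted p = 0.898) in MRM. Of 9 sensing adaptors and kinases, 4 were lower in MLM and 3 in MRM, among them EIF2AK2 (PKR) and ADAR, against 20.3% and 18.6% of all tested genes, and 2 and 1 were higher. Of 13 genes of MHC class I and antigen processing, 5 were lower in LCC2 in MLM and 1 in MRM, and none was higher, the single gene in MRM being a smaller share than the 18.6% of all tested genes; NLRC5, the activator of class I genes, was lower in both. Of 4 inhibitors of the pathway, 2 were lower in each medium and 1, PTPN2, was higher.

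Pooled as 1 group, the HCC1954 derivatives differed from parental cells in few of the listed genes. In MLM 2 of 45 were higher and 1 lower, against 17.6% and 18.9% of all tested genes, and the median log2 difference was 0.68 against -0.0021. CXCL10 was higher by 2.98 ± 0.898 (adjusted p = 0.0357) and MX1 by 1.45 ± 0.25 (adjusted p = 0.00387), and IFITM2, a membrane restriction factor, was lower, at -1.18 ± 0.25 (adjusted p = 0.00914) in limma. IFITM2 in MLM was 2736, 2429 and 1944 in the parental libraries, 1248 and 1455 in LCC1 and 811 and 791 in LCC2, all derivative libraries being below all parental ones. The CXCL10 call is lost without Parental 2, Parental 3, LCC1 1 or LCC1 2. In MRM 2 of 44 were higher and 4 lower, against 19.2% and 19.3%, with a median of -0.19 against -0.0042. With library totals as the scale the median of all genes moved by 0.11 in MLM and 0.13 in MRM, 61.3% (against 48.2%) of all calls were higher in MLM and 64.0% (against 49.9%) in MRM, and the listed genes gave 3 higher and 1 lower in MLM and 3 and 3 in MRM. IFI6 was higher by 1.76 ± 0.53 (adjusted p = 0.035) and MX1 by 0.99 ± 0.23 (adjusted p = 0.0135). The lower genes were SAMD9L at -2.4 ± 0.601 (adjusted p = 0.017), SAMD9 at -1.45 ± 0.39 (adjusted p = 0.0239), IFITM2 at -1.35 ± 0.43 (adjusted p = 0.0404) and IRF1 at -1.23 ± 0.21 (adjusted p = 0.00382). SAMD9 and SAMD9L are neighbouring genes of similar sequence whose products restrict poxviruses. SAMD9L in MRM was 3428, 3690.2 and 4292 in the parental libraries, 2415 and 686 in LCC1 and 399 and 397 in LCC2, and SAMD9 was 14597, 15026 and 17151 in the parental libraries, 10812 and 7614 in LCC1 and 3575 and 3620.0 in LCC2. Parental libraries were above all derivative libraries for both. Over all genes that order held for 3675 of 15186 in MLM and 4019 of 15432 in MRM, and the opposite order for 3448 and 3947. Without LCC1 1 in MRM 25 were called, 23 of them lower, and 7 were called without LCC1 2, 4 of them lower. Without Parental 1, 2 or 3 the count fell to 1, 1 and 2, and IRF1 kept its call without any 1 library. The shares of all tested genes are not given for these refits, so the counts show only their dependence on single libraries. The summed level of 4 fibroblast markers was 767 to 1098 in derivatives and 524 to 638 in parental cells in MLM, with LUM at 0 in every library of that medium and COL1A2 and DCN at 0 in the parental ones, and 769 to 1086 and 466 to 572 in MRM. The summed level of 6 epithelial markers was 184608 to 193930 in derivatives and 356712 to 399663 in parental cells in MLM, and 137501 to 226611 and 330172 to 353498 in MRM. That of 6 leukocyte markers was 537 to 1393 and 464 to 1170 in MLM, and 679 to 1052 and 1390.2 to 1440 in MRM; the part of these lists in the result was not tested. Each derivative was also compared with the parental libraries, a comparison added after seeing the data. The median was positive for LCC1 and negative for LCC2 in both media. Listed genes were called more often than all tested genes only as higher in LCC1 in MLM and as lower in LCC2 in MRM. LCC1 in MLM was higher for 32 of 45 genes and lower for 1, IFITM2, against 27.1% and 28.6% of all tested genes, with a median of 1.63. LCC2 in MLM was higher for 1, MX1, and lower for 6 (IFI27, IFITM2, IRF1, USP18, SAMD9 and SAMD9L), against 25.5% and 27.9%, with a median of -0.31. LCC1 in MRM was higher for 9 of 44 and lower for 3, against 27.8% and 27.4%, with a median of 0.42. LCC2 in MRM was higher for 1, again MX1, and lower for 17, against 25.5% and 26.5%, with a median of -0.998. These comparisons share the parental libraries. Counted without a test, both LCC2 libraries in MRM were below all parental libraries for 39 of 44 genes, against 41.1% of all genes of the line. LCC1 1 in MRM was above the parental libraries for 40, against 44.5%. LCC1 2 in MRM was below them for 29, against 44.8%, but above both LCC2 libraries for 33, against 46%. ISG15 in LCC2 in MRM was -1.62 ± 0.52 (adjusted p = 0.0367) relative to parental cells, and in LCC1 1.91 ± 0.52 (adjusted p = 0.0188), by limma. Among other pathway genes, IFNL1 in LCC1 in MLM was higher than in parental cells by 3.97 ± 0.87 (adjusted p = 0.00746), while IFNAR1 was lower at -1.38 ± 0.079 (adjusted p = 3.73e-05). TMEM173 (STING), an adaptor that senses cytosolic DNA through cGAS, was lower in pooled derivatives in both media, at -1.52 ± 0.14 (adjusted p = 0.000363) in MLM and -2.25 ± 0.397 (adjusted p = 0.00422) in MRM.

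The change of medium was tested within each class with edgeR's quasi-likelihood test on the recovered reads. In both lines depth differed with the medium, so depth and medium cannot be told apart in these comparisons. In parental HCC1954 cells 6 of 44 genes were higher in MLM and 3 lower, against 24.6% and 22.7% of all tested genes, with a median of 0.304 against 0.0067. IFI6 rose by 2.83 ± 0.49 (adjusted p = 0.00371), ISG15 by 1.88 ± 0.54 (adjusted p = 0.0258), IFI27 by 1.39 ± 0.27 (adjusted p = 0.00566) and OAS3 by 1.04 ± 0.32 (adjusted p = 0.0333), and BST2 and IRF7 also passed. SAMD9L fell with a log2 difference of -1.2 ± 0.25 (adjusted p = 0.00716), SAMD9 with -1.06 ± 0.19 (adjusted p = 0.00447) and IRF1 with -0.83 ± 0.16 (adjusted p = 0.00615). The MLM libraries of parental cells were far from equal. Parental 1 was the highest of the 3 for 43 of 44 genes and Parental 3 the lowest for 41, against 27% and 43.3% of all genes, and 34 genes were more than 2-fold higher in Parental 1 than in Parental 3, a gap that 4.85% of all genes showed. The log2 gap ran from -0.44 for IRF1 to 3.18 for IFI44L, with a median of 1.498. Without Parental 3 in MLM 33 were higher and 3 lower, against 34.7% and 33.6%; the log2 difference of ISG15 was then 2.28 ± 0.24 (adjusted p = 9.87e-07) and that of IFIT1 1.89 ± 0.24 (adjusted p = 5.48e-06). Without Parental 1 in MLM 5 were higher and 8 lower, and without any 1 of the parental libraries in MRM 2 were higher and 3 lower. For these refits the shares of all tested genes are not given. Of 13 class I and antigen processing genes, 7 were higher in MLM and 3 lower. In the HCC1954 derivatives the difference between media was positive for 44 of 44 genes, with a median of 1.02 against 0.0025. The listed genes moved together across these libraries, so their signs are not independent of each other. The share of all genes with a positive difference is not given. No listed gene was called by edgeR, and 3 had an unadjusted p under 0.05. Of all tested genes 5.88% were called higher and 5.95% lower. limma called 1 and DESeq2 3. With library totals as the scale 34.2% (against 49.7%) of all calls were higher, and no listed gene was called. The labels give the same derivatives in both media, and with the derivative as a term, chosen after seeing the data, edgeR called 21 higher and 0 lower, against 18.7% and 18.3% of all tested genes. With that term ISG15 was higher in MLM by 1.97 ± 0.42 (adjusted p = 0.00941), IFIT1 by 2.27 ± 0.502 (adjusted p = 0.0107) and IRF9 by 0.98 ± 0.1995 (adjusted p = 0.00762). Pairing libraries also by number, as a replicate block, called 19 higher and 0 lower, against 14.8% and 13.5%; within a derivative the labels give no more than the number, and LCC1 2 in MLM correlated best with LCC1 1 in MRM. In LCC2 both libraries in MLM were above both in MRM for 38 of 44 genes, against 43.9% of all genes. In LCC1, taken by number, the larger difference was in LCC1 2, whose module mean was 12.79 in MLM and 10.37 in MRM. LCC1 1 moved less in the same direction, with 12.5 and 12.19. LCC1 1 exceeded LCC1 2 in MRM for 44 of 44 genes, against 50.8% of all genes, and by more than 2-fold for 38, a gap that 7.29% of all genes showed, from 0.51 for SAMD9 to 3.53 for TRIM22 in log2 units. Without LCC1 1 in MRM 11 genes were called higher by edgeR, and without LCC1 2 in MRM 0 were called. The shares of all tested genes are not given for these 2 refits. Whether the effect of being a derivative differed between the media was tested as an interaction in limma: 0 of 44 were called in either direction and 0 had an unadjusted p under 0.05, against 0.0649% higher and 0.0909% lower of all tested genes, and edgeR also called 0. The median interaction was 0.87 log2 units against -0.0036. It was positive for 42 of 44 listed genes, whose signs are again not independent, and the share of all genes is not given.

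In H2087 the genes were less tightly tied to each other. The correlation of a gene with the mean of the other listed genes had a median of 0.64 over the 16 libraries, 6 of 44 genes were above 0.8, and ISG20 and BST2 were below 0, against a median of -0.019 and 0.12% above 0.8 for the other genes of the line. A listed gene spanned a median of 1.55 log2 units across libraries, against 1.04 for the other genes. The genes off the list closest to the module mean were ZNF408 (r = 0.900), CDK13 (r = 0.864), MADD (r = 0.863), ZSWIM5 (r = 0.857) and CELF1 (r = 0.853). LCC3 in MLM was the highest library for 16 of 44 genes and LCC6 in MLM the lowest for 16, against 6.65% and 8.1% of all genes of the line. In MLM, genes above both parental libraries numbered 29 in LCC1, 37 in LCC2, 34 in LCC3 and 29 in LCC4, against 47.3%, 47.7%, 46.3% and 46.5% of all genes. They numbered 8 in LCC5 and 5 in LCC6, against 47% and 46.2%, and 35 and 39 were below both, against 45.8% and 47.4%. In MRM 17, 29, 20 and 32 genes were above both in LCC1 to LCC4, against 42.1%, 44.7%, 44.1% and 45.8%, and 14 in each of LCC5 and LCC6, against 43.3% and 43.5%. Each derivative had 1 library per medium, so these counts have no replicate check.

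**Figure D4:**
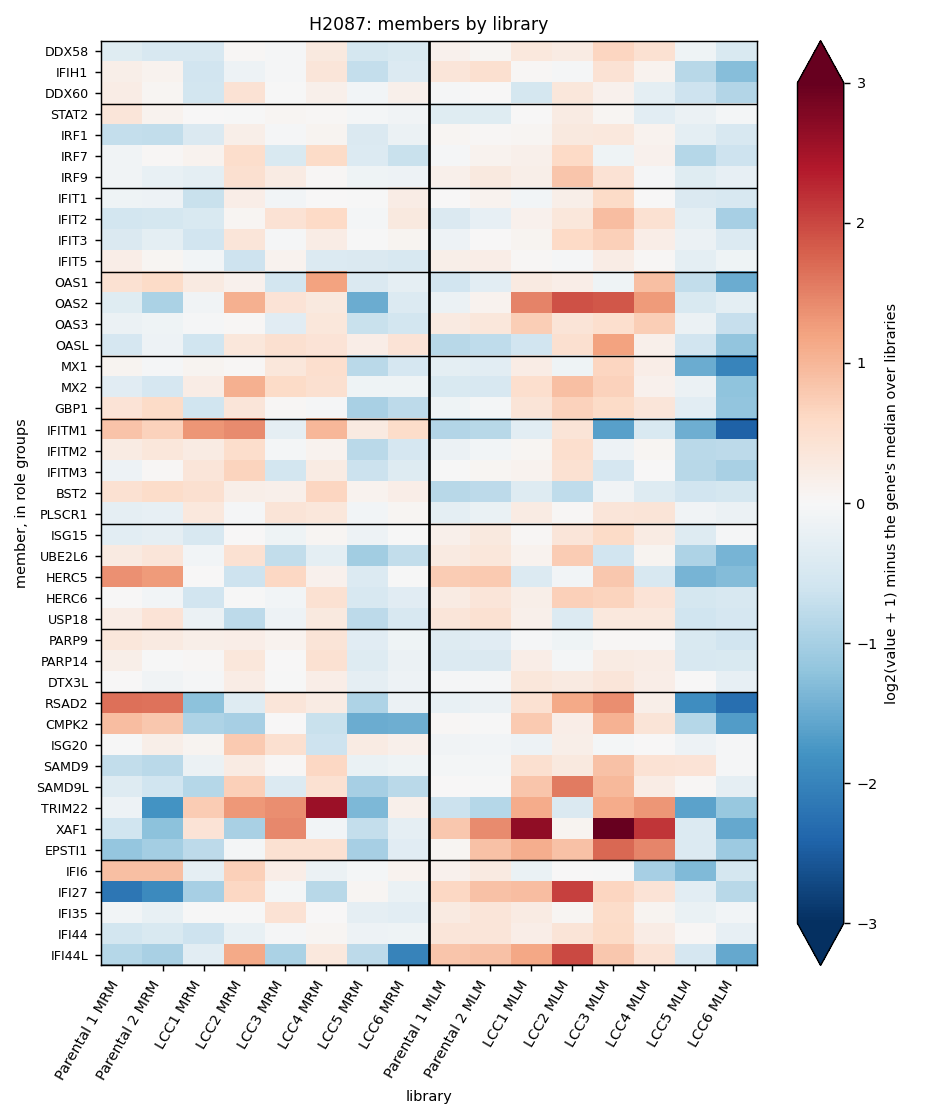
Each interferon stimulated gene (rows) in each H2087 library (columns), as log2(normalised read count + 1) minus the gene's median over the 16 libraries; colour gives the difference in log2 units. LCC5 and LCC6 in MLM are low for most genes, LCC2 and LCC3 in MLM are high for most, and single genes such as IFITM1 and BST2 follow the medium.

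With derivatives on both sides of the parental level, no listed gene was called between LCC and parental cells of H2087 in MLM by limma, 4 of 44 having an unadjusted p under 0.05; edgeR and DESeq2 also called 0, and 4.94% of all tested genes were called higher and 8.77% lower. The median log2 difference was -0.054 against 0.00501. Leaving out LCC3 or LCC6 in MLM gave 1 call each. With library totals as the scale 22.7% (against 36.0%) of all calls were higher in MLM and 40.7% (against 60.04%) in MRM, and the listed genes gave 0 calls in MLM and 2 higher and 5 lower in MRM. In MRM 2 of 44 were higher and 4 lower, against 8.76% and 5.83%, with a median of 0.013 against -0.0023. IFI27 was higher by 1.81 ± 0.4 (adjusted p = 0.02) and SAMD9 by 0.84 ± 0.22 (adjusted p = 0.035). IFI27 in MRM was 39.5 and 47.3 in the parental libraries and, over the 6 derivatives, from 90.3 to 280.4 with a median of 167, and SAMD9 was 313 and 300.1 in the parental libraries and, over the 6 derivatives, from 457 to 809 with a median of 508, every derivative being above both parental libraries for each. The lower genes were RSAD2 (viperin), which makes a chain-terminating nucleotide, at -2.0 ± 0.47 (adjusted p = 0.0254), its neighbour CMPK2, a nucleotide kinase, at -1.79 ± 0.404 (adjusted p = 0.0216), HERC5, the ligase that attaches ISG15, at -1.37 ± 0.29 (adjusted p = 0.0181), and IFI6 at -0.82 ± 0.23 (adjusted p = 0.0434). RSAD2 had a mean under 50 in this line and is named because the count is small, after its values were seen. RSAD2 in MRM was 69.6 and 68.5 in the parental libraries and, over the 6 derivatives, from 8.52 to 27.9 with a median of 17.5. HERC5 in MRM was 508 and 473 in the parental libraries and, over the 6 derivatives, from 126 to 304 with a median of 195, and CMPK2 was 120.2 and 111 in the parental libraries and, over the 6 derivatives, from 21.5 to 63.5 with a median of 31.6. For all 3, no derivative reached the parental level in MRM, whereas in MLM the derivatives ran from 3.69 to 58.3 for RSAD2, around 18.3 and 18.8 in the parental libraries, and from 19.1 to 129 for CMPK2, around 64.6 and 61.8. HERC5 in MLM was 334.0 and 337 in the parental libraries and, over the 6 derivatives, from 74.1 to 345 with a median of 143, LCC3 alone reaching the parental level, and its difference of -1.25 ± 0.53 (adjusted p = 0.156) in limma was not called. With either parental library in MRM left out no gene was called, without LCC1 9 were called, and without LCC3 4. DESeq2 called 10 in MRM.

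The values behind these comparisons show which derivatives were high or low. All derivatives lay above both parental libraries for 2041 of 12480 genes in MLM and 2436 of 12495 in MRM, and below both for 2507 and 2307. Of the 44 listed genes, 4 and 7 lay above and 2 and 6 below. A complete order of 1 gene in H2087, here or above, is to be read against these shares. IFIT1 in MLM was 393 and 419.9 in the parental libraries and, over the 6 derivatives, from 281 to 582 with a median of 383. In MRM IFIT1 was 357 and 349.8 in the parental libraries and, over the 6 derivatives, from 247 to 459.9 with a median of 393, so that parental cells lay inside the range of the derivatives in both media. ISG15 in MLM was 1357 and 1484 in the parental libraries and, over the 6 derivatives, from 919 to 1796 with a median of 1343. In MRM ISG15 was 976 and 1009 in the parental libraries and, over the 6 derivatives, from 868 to 1268 with a median of 1163, again with parental cells inside the range. USP18 in MLM was 519 and 549 in the parental libraries and, over the 6 derivatives, from 263 to 502 with a median of 373, no derivative exceeding the parental libraries. In MRM USP18 was 468 and 536 in the parental libraries and, over the 6 derivatives, from 231 to 488 with a median of 323, and LCC4 was the highest derivative in both media. OAS1 in MLM was 177 and 211 in the parental libraries and, over the 6 derivatives, from 92.9 to 492 with a median of 271. In MRM OAS1 was 361 and 389.9 in the parental libraries and, over the 6 derivatives, from 179.6 to 613 with a median of 254, with LCC4 highest in both media. MX1 in MLM was 342 and 335 in the parental libraries and, over the 6 derivatives, from 105 to 653 with a median of 431, LCC3 being highest and LCC6 lowest. In MRM MX1 was 439.6 and 409 in the parental libraries and, over the 6 derivatives, from 238 to 586 with a median of 433. IFI6 in MLM was 1202 and 1341 in the parental libraries and, over the 6 derivatives, from 441 to 1113 with a median of 865, all derivatives lying below both parental libraries. In MRM IFI6 was 2079.6 and 2054 in the parental libraries and, over the 6 derivatives, from 922 to 1808 with a median of 1121, and the same held. IFI27 in MLM was 280.1 and 336 in the parental libraries and, over the 6 derivatives, from 102 to 755 with a median of 263, a range that takes in the parental level, unlike in MRM. IFITM1 in MLM was 575 and 590.1 in the parental libraries and, over the 6 derivatives, from 195 to 1374 with a median of 573. In MRM IFITM1 was 1893 and 1689.7 in the parental libraries and, over the 6 derivatives, from 873 to 2818 with a median of 1810.3, LCC2 being the highest derivative in both media. IFITM3 in MLM was 6776 and 7166 in the parental libraries and, over the 6 derivatives, from 3523 to 9442 with a median of 5919.5. In MRM IFITM3 was 6237 and 7102 in the parental libraries and, over the 6 derivatives, from 4369.8 to 10884 with a median of 6683, with LCC2 highest in both media and parental cells inside the range. BST2 in MLM was 3067 and 3176 in the parental libraries and, over the 6 derivatives, from 3206 to 5024 with a median of 3957, every derivative being above both parental libraries. In MRM BST2 was 7518 and 8011 in the parental libraries and, over the 6 derivatives, from 5874 to 8513 with a median of 6154, with 4 of 6 derivatives below both parental libraries. STAT2 in MLM was 1062 and 1065 in the parental libraries and, over the 6 derivatives, from 1098 to 1631 with a median of 1349, all derivatives being above. In MRM STAT2 was 1765 and 1484 in the parental libraries and, over the 6 derivatives, from 1279 to 1425 with a median of 1377, all derivatives being below. IRF1 in MLM was 1258 and 1219.8 in the parental libraries and, over the 6 derivatives, from 859 to 1492 with a median of 1268, around the parental level. In MRM IRF1 was 729 and 716 in the parental libraries and, over the 6 derivatives, from 885 to 1349 with a median of 1118, all derivatives being above. IRF9 in MLM was 1000.4 and 1099.6 in the parental libraries and, over the 6 derivatives, from 706 to 1606 with a median of 955. In MRM IRF9 was 839.8 and 770.4 in the parental libraries and, over the 6 derivatives, from 733 to 1267 with a median of 872, with LCC2 highest in both media.

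The medium split the list in parental H2087 cells. In MLM 17 of 43 tested genes were higher and 15 lower by edgeR, against 37.8% and 36.9% of all tested genes, so the listed genes were called about as often as genes in general; the median was 0.047 against 0.00999. Depth differed with the medium in this line too, and the 2 cannot be told apart. IFI27 was higher in MLM by 2.83 ± 0.19 (adjusted p = 9.21e-09), IFI44L by 1.75 ± 0.16 (adjusted p = 2.03e-07), IFI44 by 0.85 ± 0.061 (adjusted p = 1.6e-08) and IRF1 by 0.75 ± 0.062 (adjusted p = 7.04e-08). IFITM1 differed by -1.65 ± 0.063 (adjusted p = 2.36e-11), BST2 by -1.33 ± 0.047 (adjusted p = 1.24e-11), OAS1 by -0.96 ± 0.11 (adjusted p = 3.19e-06) and CMPK2 by -0.902 ± 0.17 (adjusted p = 0.000213), all lower in MLM. By role, 4 of 5 IFI genes were higher and 1, IFI6, lower, whereas 3 of 5 membrane restriction genes and 2 of 3 ligases (PARP9 and PARP14, which modify proteins with ADP-ribose) were lower and none of either group was higher. The subunits of ISGF3 on the list differed in sign, STAT2 at -0.65 ± 0.068 (adjusted p = 9.84e-07) and IRF9 at 0.35 ± 0.07 (adjusted p = 0.000404). Within the oligoadenylate synthetases OAS2 and OAS3 were higher and OAS1 and OASL lower. Of 13 class I and antigen processing genes 11 were lower in MLM and 1, PSMB10, was higher. In the H2087 derivatives 1 of 44 genes was higher in MLM and 2 were lower by edgeR, against 18.4% and 15.9% of all tested genes, with a median of 0.17 against 0.041. IFI44 was higher by 0.41 ± 0.14 (adjusted p = 0.0392), and IFITM1 at -1.49 ± 0.45 (adjusted p = 0.0213) and BST2 at -0.72 ± 0.12 (adjusted p = 0.000666) were lower. The IFI44 call is lost without any 1 of LCC1, LCC2, LCC3 and LCC4 in MLM or of LCC1, LCC2, LCC5 and LCC6 in MRM. The count is 6 without LCC5 or LCC6 in MLM, and 4, 5 and 5 without LCC2, LCC3 and LCC4 in MRM. With library totals as the scale 65.6% (against 53.6%) of all calls were higher, and the listed genes gave 2 higher and 2 lower. Pairing each derivative with itself across media as a block gave 14 higher and 4 lower, against 27.2% and 23.1% of all tested genes. With the block OAS2 was higher in MLM by 1.06 ± 0.18 (adjusted p = 0.00124), CMPK2 by 1.02 ± 0.23 (adjusted p = 0.0054), SAMD9L by 0.9 ± 0.22 (adjusted p = 0.00777) and IFI44L by 0.89 ± 0.22 (adjusted p = 0.00949), and IFITM1 was lower at -1.65 ± 0.21 (adjusted p = 0.000291). The module mean did not move alike in the 6 derivatives: MLM minus MRM was 0.48 in LCC1, 0.43 in LCC3 and 0.20 in LCC2, but 0.0014 in LCC4, -0.095 in LCC5 and -0.54 in LCC6. Of 13 class I and antigen processing genes 10 were lower in MLM and 1 higher. The interaction of cell class and medium called 1 gene of 44 in limma, STAT2, against 4.08% higher and 6.64% lower of all tested genes. STAT2 fell with mitogen-low medium in parental cells, at -0.65 ± 0.068 (adjusted p = 9.84e-07) by edgeR, and was 0.0089 ± 0.084 (adjusted p = 0.944) in the derivatives, not called; the difference of these changes was 0.58 ± 0.16 (adjusted p = 0.0357) in limma. The STAT2 call is lost without LCC1 or LCC3 in MLM, LCC5 in MRM, either parental library in MLM, or Parental 1 in MRM. With the block 6 were higher and 2 lower, against 11.5% and 15.8%: STAT2, IFITM2, BST2, PARP9, CMPK2 and GBP1 were higher, with CMPK2 at 1.76 ± 0.43 (adjusted p = 0.0142), and IFI27 at -2.08 ± 0.61 (adjusted p = 0.0289) and IRF1 at -0.64 ± 0.18 (adjusted p = 0.0237) were lower. The parental libraries in this interaction share only a number across the media. Type III interferon genes were not analysed here in H2087, and IFNB1 had 0 to 2 reads per library.

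**Figure D5:**
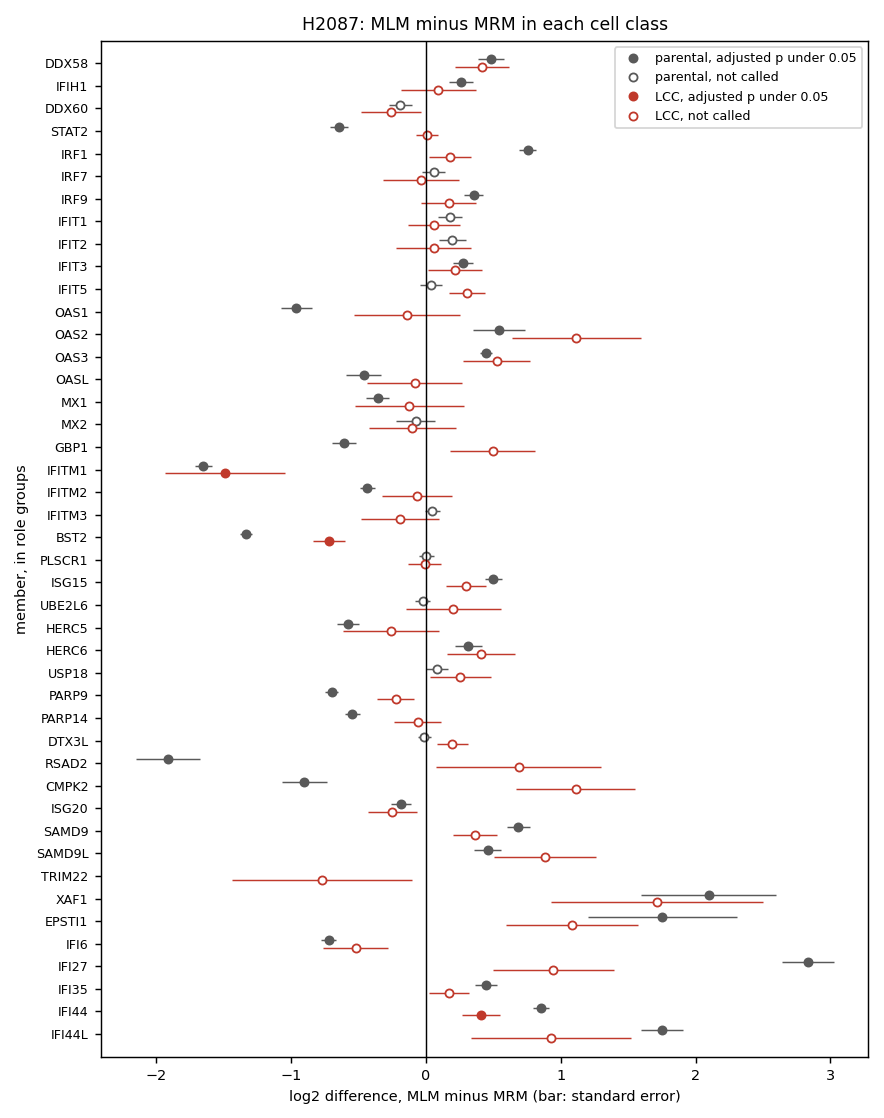
Log2 difference between MLM and MRM for each interferon stimulated gene in H2087 parental cells and derivatives, with the standard error from edgeR; filled points are called at an adjusted p under 0.05. In parental cells 17 genes lie above 0 and 15 below 0 among those called, and in the derivatives IFITM1 and BST2 are lower and IFI44 higher.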

How the data were processed

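RNA-seq values came from 4 tables, 1 per line and medium. Per the submitters' processing notes, the tools included Bowtie2 2.2.4, HTSeq 0.6.1p1 and DESeq2 1.8.1 and the builds named are hg19 and GRCh37; the strand setting is not given in the sources used here. The deposited signal is a normalised read count, which the authors' tables give as gene counts divided by 1 size factor per library. Dividing out that factor gave whole reads for every value within a tolerance of 0.01, and both media of a line share 1 normalisation. Genes with a mean of at least 10 over the libraries of a fit were tested. LCC against parental, LCC2 against LCC1 and the interaction of class and medium were fitted with limma 3.58.1 on log2(value + 1) with a trended prior, a scale that understates changes of low genes. Media within a class were fitted with edgeR 4.0.16 (quasi-likelihood, TMM) on the recovered reads, with the standard error taken as the log2 difference over the square root of F. Tests were two-sided with Benjamini-Hochberg adjustment over all tested genes. The limma, edgeR and DESeq2 fits were tested on simulated data for LCC against parental cells in MLM of each line. The other designs were not simulated.

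The members and gene lists were chosen with earlier results of these data known. Named genes are 13 chosen members with values in every library, plus up to 4 called members per direction and comparison with the largest change and a mean of at least 50; the 5 genes off the list most like the module mean needed a mean of at least 100. Alternatives were edgeR, limma or DESeq2 1.42.0 in place of the main tool, library totals or deposited size factors, a pseudocount of 10, no filter, a replicate block, each library left out, the median in place of the module mean, and, chosen after seeing the data, single derivatives, the derivative as a term between the media in HCC1954, and leaving out both HCC1954 libraries that stand apart. Across the media, deviations of LCC libraries of the same derivative and number correlated from 0.411 to 0.756 in H2087 and from 0.507 to 0.698 in HCC1954; the labels give the same derivative in both media, and within an HCC1954 derivative no more than a number ties the libraries. Chromatin data and coordinates of the files' builds were not used. Promoter sequences are RefSeq's, GRCh38.p14. Results for 2 genes off the list are not reported here.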

Additional observations from a re-analysis of the deposited data

Results flagged for a closer look

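Values of 56 groups of 4 to 10 libraries were searched for a library far from the rest of its group, by the ratio of its gap to the group's range; by chance about 1 group in 20 is marked. In the 4 HCC1954 derivative libraries in MRM, the library LCC1 1 was marked for 6 genes: IFI6 at 24790 normalised reads, IFITM1 at 14890, BST2 at 9961, OAS1 at 7264, IRF1 at 3679 and USP18 at 2493. These genes share that library, so the marks are not independent of each other. The group also holds both LCC2 libraries, so a mark does not show which LCC1 library departs from its derivative. Over genes of the line, both LCC1 libraries in MLM correlated best with LCC1 1 in MRM, and neither with LCC1 2. In the 6 H2087 derivatives in MRM, LCC4 was marked for OAS1 at 613.5.

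The change of STAT2 with medium differed between the derivatives and the parental cells of H2087, by 0.576 log2 units in the interaction test of limma (adjusted p = 0.0357), a gene listed among those marked here because the test of the difference itself passed. In MLM 6 of 6 derivatives were above both parental libraries and in MRM 6 of 6 were below both. The test used these same values, so the order is not separate support. All derivatives were above both parental libraries for 2041 of 12480 genes in MLM, and below both for 2307 of 12495 in MRM.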

How the results depend on the processing

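Of 56 named calls, 27 kept their call under every alternative run for them and 0 reversed; over their 696 alternatives 569 kept the call and 127 lost it. The H2087 count between LCC and parental cells in MRM was 10 with DESeq2, the HCC1954 count between media in the derivatives was 1 with limma and 3 with DESeq2, and the cause was not tested. The alternatives with a single derivative, chosen after seeing the data, gave in HCC1954 33 calls for LCC1 and 7 for LCC2 in MLM, and 12 and 18 in MRM, and set USP18 in MLM at -1.054 and ISG15 in MRM at -1.617 for LCC2, opposite in sign to the pooled derivatives. Without LCC1 1 in MRM, LCC2 against LCC1 gave IFITM1 0.781, IFITM3 0.647 and STAT2 0.588, opposite in sign to the value with both libraries; without LCC1 2 they were -2.35, -1.45 and -0.736. The module mean of parental H2087 cells in MLM minus MRM was 0.0927, and 0.1585 with library totals as the scale.

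With the replicate block, counts were 18 for media in the H2087 derivatives and 8 for the H2087 interaction, where the LCC libraries are paired by derivative. The parental libraries, which also enter the interaction, share only a number across the media. For media in the HCC1954 derivatives the count was 21 with the derivative as a term, chosen after seeing the data, and 19 with a block that also pairs by number within a derivative, where 3 of 4 libraries correlated best with their own number. Elsewhere libraries share only a number. There the block gave 1 for the HCC1954 derivatives against parental cells in MRM and 10 for LCC2 against LCC1 in MRM. Between the media, deviations of same-numbered parental libraries correlated at 0.0515 in H2087 and from 0.0183 to 0.116 in HCC1954. Each library correlated best with its own number, but values this near 0 do not show that the numbers pair libraries. In H2087 both parental libraries give the same value, so they count once. The block moved no other count by more than 1.5 times.

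With each library left out in turn, counts ran in H2087 from 0 to 1 (LCC against parental, MLM), 0 to 9 (MRM), 26 to 32 (media, parental), 2 to 6 (media, LCC) and 0 to 2 (interaction). In HCC1954 they ran from 2 to 4 (LCC against parental, MLM), 1 to 25 (MRM), 5 to 36 (media, parental), 0 to 11 (media, LCC), 0 to 0 (interaction), 9 to 43 (LCC2 against LCC1, MLM) and 5 to 43 (MRM). The module mean difference of LCC minus parental ran in H2087 from -0.0872 to 0.176 in MLM and -0.0398 to 0.103 in MRM, and in HCC1954 from 0.255 to 1.04 in MLM and -0.829 to -0.034 in MRM. MLM minus MRM ran in H2087 from 0.0466 to 0.139 in parental cells and -0.0179 to 0.245 in derivatives, and in HCC1954 from -0.144 to 0.636 and 0.812 to 1.72. Few reads limit IFNL1, IFNL2, IFNB1 and, in H2087, RSAD2.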
